A study of Homo sapiens with 8 samples.

Results

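Keratins KRT7, KRT8, KRT18 and KRT19, with KRT17, KRT80 and KRT81, were followed in ovarian cancer cells in which the splicing factor SFPQ had been silenced. All probes that were not array controls and whose RefSeq accession belongs to one of these 7 genes were taken, which gave 9 probes among 50599. KRT8 (NM_002273) and KRT18 (NM_000224) had 2 probes each. KRT7 (NM_005556), KRT19 (NM_002276), KRT17 (NM_000422), KRT80 (NM_182507) and KRT81 (NM_002281) had 1 each. Of the 7 genes 6 passed the filter on dim signal, against 15552 of 20503 named genes in all, and KRT17 did not pass.

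RNA came from 2 human ovarian cancer cell lines, MDAH and SKOV3. Each line gave 2 control arrays and 2 arrays of cells with a lentiviral shRNA against SFPQ, 1 with sh-SFPQ#2 and 1 with sh-SFPQ#3, so that there were 8 arrays in 4 groups of 2. The labels give both controls of a line a control shRNA, while the methods name an untransduced and a control shRNA sample, and the controls are therefore described here only as cells that were not silenced. A silenced group holds 1 array per shRNA, so that differences between both shRNAs add to its spread, and since nothing states separate cultures, p-values measure only the spread between these arrays, which may be technical.

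Keratins are the intermediate filament proteins of epithelial cells. A type I keratin (KRT17, KRT18 and KRT19 here) pairs with a type II keratin (KRT7, KRT8, KRT80 and KRT81 here), and the pairs assemble into filaments that desmosomes and plakins tie to the cell border. KRT8 and KRT18 are the first pair made in simple, one-layered epithelium, KRT7 and KRT19 join them in ducts and in many carcinomas, and KRT7 is a routine stain for carcinomas of the ovary. The other members are not simple-epithelial keratins in the strict sense: KRT17 is made in basal and injured epithelium and skin appendages, KRT80 is found in many epithelia at cell junctions, and KRT81 is a hair keratin that carcinoma lines can also make. KRT7, KRT80, KRT81 and KRT8 lie in the keratin cluster of chromosome 12, where KRT18 is the only type I gene, and KRT17 and KRT19 lie in the cluster of chromosome 17. Levels are log2 signals set against the same array's 75th percentile, which is 0 on this scale, and differences on this scale are log2 fold changes. Each probe has its own brightness, so levels are not compared between genes.

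SFPQ (NM_005066), the silenced gene, had levels of 3.64 and 3.91 in the MDAH controls, and sh-SFPQ#2 cells read 2.45 and sh-SFPQ#3 cells 2.10. In SKOV3 the controls read 4.84 and 4.66, sh-SFPQ#2 cells 3.01 and sh-SFPQ#3 cells 2.48. All silenced arrays lay below both controls of their line. The log2 fold change was −1.50 in MDAH (SE 0.23, limma adjusted p = 0.0328) and −2.01 in SKOV3 (SE 0.23, adjusted p = 0.0299). Both calls lay close to the threshold of 0.05. The MDAH call was lost without any 1 of the 4 control arrays or without the sh-SFPQ#3 array of MDAH (adjusted p up to 0.218, without MDAH control 1), and the SKOV3 call without any 1 control array or without the sh-SFPQ#3 array of SKOV3 (up to 0.118, without SKOV3 control 1). The labelled tissue was checked with markers fixed in lists. Of 8 ovarian tumour markers PAX8, a lineage factor of Müllerian epithelium (3.34 to 4.12), SOX17, FOLR1 and WFDC2 were well above background on all arrays, WT1 in MDAH only, EMX2 on 5 arrays, MUC16 on the silenced SKOV3 arrays only and MSLN on none. EPCAM, an epithelial adhesion protein, was well above background on all arrays (0.99 to 4.90). CDH1, the epithelial cadherin, was well above background in MDAH (−2.04 to −0.44) and on the silenced SKOV3 arrays (−3.55 and −2.82), but on neither SKOV3 control. Of 12 mesenchymal markers VIM, CDH2, COL1A1 and ACTA2 were well above background on all arrays, FN1 in MDAH only, THY1 and DCN in SKOV3 only, COL1A2 on 2 arrays, and COL3A1, PDGFRA, PDGFRB and LUM on none. Of 9 leukocyte and endothelial markers with a probe PTPRC, CD14, CD68 and CDH5 were well above background on all arrays, PTPRC near the dim end (−3.51 to −2.28), and CD3E of T cells on none. VIM, which carcinoma lines in culture make as well, read 7.36 to 8.39.

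The first comparison was between the lines without silencing, where the keratin profiles differed sharply. KRT7 was about 18.8-fold higher in SKOV3, KRT19 about 26.9-fold lower and KRT81 about 3.08-fold lower, while KRT8, KRT18 and KRT80 passed no threshold. Thus 3 of the 6 tested keratins were called, 1 higher and 2 lower in SKOV3, where 57.5% of all genes tested were called between these lines, 30.7% higher and 26.8% lower. The keratins were therefore not called more often than genes at large. The control arrays of the lines did not overlap for 4 of the 6 keratins, KRT7, KRT19, KRT80 and KRT81, against 85.2% of all genes.

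KRT7 had levels of 4.38 and 4.35 in the MDAH controls and of 8.67 and 8.53 in the SKOV3 controls. Replicate controls lay within 0.14 of each other on the log2 scale, and the log2 difference of SKOV3 over MDAH was 4.24 (SE 0.15, 95% interval 3.88 to 4.59, adjusted p = 3.64e-06). On silencing the order of the groups stayed the same, with both SKOV3 groups above both MDAH groups on every array.

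KRT19, the smallest keratin, which lacks the usual tail domain, ran the other way. Its levels were 6.75 and 7.30 in the MDAH controls and 1.96 and 2.58 in the SKOV3 controls, a log2 difference of −4.75 (SE 0.34, interval −5.56 to −3.94, adjusted p = 5.65e-05). The gap between the lines was several times the spread of either pair of controls, 0.55 in MDAH and 0.62 in SKOV3.

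KRT81 had levels of 5.67 and 4.93 in the MDAH controls and of 3.75 and 3.61 in the SKOV3 controls, a log2 difference of −1.62 (SE 0.24, adjusted p = 0.00141). Its near-identical neighbours KRT83 and KRT86 could hybridise to the same probe. KRT86 had no probe here. KRT83 went the opposite way to KRT81, with −0.09 and 0.48 in the MDAH controls and 2.91 and 2.78 in the SKOV3 controls (log2 difference 2.65, SE 0.25, adjusted p = 0.000183; 1.16 with the mean of all its probes).

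The KRT8 and KRT18 pair showed no difference between the lines that passed the threshold. KRT8 had levels of 3.83 and 4.66 in the MDAH controls and of 4.52 and 5.11 in the SKOV3 controls, and the pairs overlapped. The log2 difference was 0.57 (SE 0.36, interval −0.28 to 1.42, adjusted p = 0.211). KRT18 had levels of 7.52 and 7.87 against 7.14 and 7.60, a log2 difference of −0.33 (SE 0.21, interval −0.83 to 0.18, adjusted p = 0.224). The intervals leave room for a KRT8 level up to 2.67-fold higher and a KRT18 level up to 1.78-fold lower in SKOV3.

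KRT80 had levels of 4.60 and 4.37 in the MDAH controls and of 4.76 and 4.93 in the SKOV3 controls. These arrays did not overlap, but the log2 difference was only 0.36 (SE 0.46, adjusted p = 0.532), since the spread that the test used includes the wide silenced groups described below. KRT17 gave little signal, with −7.00 and −6.34 in the MDAH controls, neither well above background, and at −5.43 and −2.97 in the SKOV3 controls, of which the second was well above background. Set against the lowest signal that counted as well above background in MDAH, the SKOV3 mean of KRT17 was 1.60-fold higher. Only 1 of 2 SKOV3 arrays measured it, and the mean includes the dim one, so the value is no lower bound. Without the filter its adjusted p was 0.0839.

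**Figure D1:**
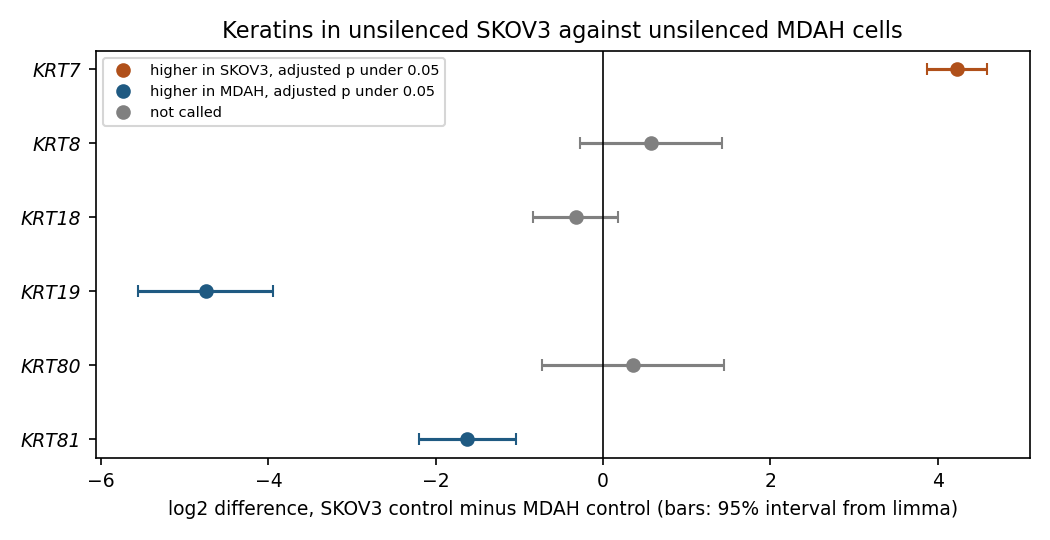
Log2 difference of SKOV3 control over MDAH control cells (horizontal axis) for the 6 tested keratins, 2 arrays per group; points are limma estimates and bars 95% intervals. KRT7 lies at 4.24, KRT81 at −1.62 and KRT19 at −4.75, and the intervals of KRT8, KRT18 and KRT80 include 0.

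The second comparison asked what silencing SFPQ did to the keratins in each line. None of the 6 tested keratins was called in MDAH, where 2.03% of all genes tested were called, and none in SKOV3, where 0.997% were. A count of 0 among 6 genes is close to both shares. At an unadjusted p under 0.05 there was 1 in MDAH, KRT7, and 0 in SKOV3, where 23.1% and 19.5% of all genes were. The keratins' median log2 fold change was 0.28 in MDAH and 0.11 in SKOV3, against 0.10 and −0.04 over all genes.

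KRT7 had the lowest p in MDAH. Its levels were 4.38 and 4.35 in the controls, and sh-SFPQ#2 cells read 4.94 and sh-SFPQ#3 cells 4.70, so both silenced arrays lay above both controls. The log2 fold change was 0.45 (SE 0.15, interval 0.10 to 0.81, limma adjusted p = 0.150), which missed the threshold. In SKOV3, where the gene is far brighter, the silenced arrays read 8.65 and 8.68 against 8.67 and 8.53, and the log2 fold change was 0.07 (SE 0.15, interval −0.29 to 0.43, adjusted p = 0.825). The change in MDAH minus that in SKOV3 was 0.39 (SE 0.21, adjusted p = 0.417), so the lines were not shown to differ.

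KRT18 and KRT81 had the same kind of pattern in MDAH. KRT18 read 8.0 and 8.16 on the silenced arrays, above 7.52 and 7.87, a log2 fold change of 0.38 (SE 0.21, interval −0.12 to 0.89, adjusted p = 0.320). KRT81 read 5.67 and 5.72 against 5.67 and 4.93, where the sh-SFPQ#2 array stood above the brighter control only in the third decimal (log2 fold change 0.39, SE 0.24, adjusted p = 0.370). Both silenced arrays lay above both controls for 3 of the 6 keratins in MDAH, KRT7, KRT18 and KRT81, and below both for none. Over all genes tested 35.6% lay above and 21.4% below in this way, so the keratins' count is near the background. The sh-SFPQ#3 array of MDAH was dim, with a 75th percentile of 244 against 405 to 496 on the other MDAH arrays. Before scaling, its signals for KRT7, KRT18 and KRT81 lay below both controls, so its position above them rests on the scaling.

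In SKOV3 KRT18 read 7.35 and 7.24 on the silenced arrays, between the controls of 7.14 and 7.60 (log2 fold change −0.08, SE 0.21, interval −0.58 to 0.43, adjusted p = 0.859). KRT81 read 3.87 and 3.80, just above its controls of 3.75 and 3.61 (log2 fold change 0.15, SE 0.24, adjusted p = 0.751). KRT19 had the largest estimate in this line. It read 2.59 with sh-SFPQ#2 and 3.27 with sh-SFPQ#3, against 1.96 and 2.58, a log2 fold change of 0.66 (SE 0.34, interval −0.15 to 1.47, adjusted p = 0.335). The sh-SFPQ#2 array stood just above the brighter control. KRT19 and KRT81 were the only keratins of the 6 whose silenced arrays all lay above the controls in SKOV3, against 25.9% of all genes, and none lay below, against 32.1%. KRT81 was above in both lines, as were 12.4% of all genes. In MDAH KRT19 read 7.13 with sh-SFPQ#2, between its controls of 6.75 and 7.30, and 6.73 with sh-SFPQ#3, just below both. The log2 fold change there was −0.09 (SE 0.34, adjusted p = 0.889).

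KRT8, the type II partner of KRT18, was called in neither line. Its brighter probe read 4.15 and 4.68 on the silenced MDAH arrays against 3.83 and 4.66, and 4.62 and 4.23 on the silenced SKOV3 arrays against 4.52 and 5.11. The log2 fold changes were 0.17 in MDAH (SE 0.36, interval −0.68 to 1.02, adjusted p = 0.801) and −0.40 in SKOV3 (SE 0.36, interval −1.25 to 0.45, adjusted p = 0.562). Controls of one line differed by 0.83 in MDAH and 0.59 in SKOV3, more than either change.

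KRT80 had the largest estimate in MDAH and the opposite sign in SKOV3. In MDAH it read 4.39 with sh-SFPQ#2 and 3.1 with sh-SFPQ#3, against 4.60 and 4.37 in the controls (log2 fold change −0.75, SE 0.46, interval −1.84 to 0.35, adjusted p = 0.365). In SKOV3 it read 5.66 and 4.76, against 4.76 and 4.93 (log2 fold change 0.36, SE 0.46, interval −0.73 to 1.46, adjusted p = 0.686). In each line 1 shRNA read near the controls and the other away from them, sh-SFPQ#3 in MDAH by −1.39 and sh-SFPQ#2 in SKOV3 by 0.82 from the control mean. The difference between the lines was −1.11 (SE 0.65, interval −2.65 to 0.43, adjusted p = 0.441).

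KRT17, which was not tested, read −6.43 and −5.19 on the silenced MDAH arrays, neither well above background. In SKOV3 it read −4.55 with sh-SFPQ#2, not well above background, and −2.43 with sh-SFPQ#3, which was. The SKOV3 controls spanned −5.43 to −2.97, and the silenced arrays overlapped them.

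**Figure D2:**
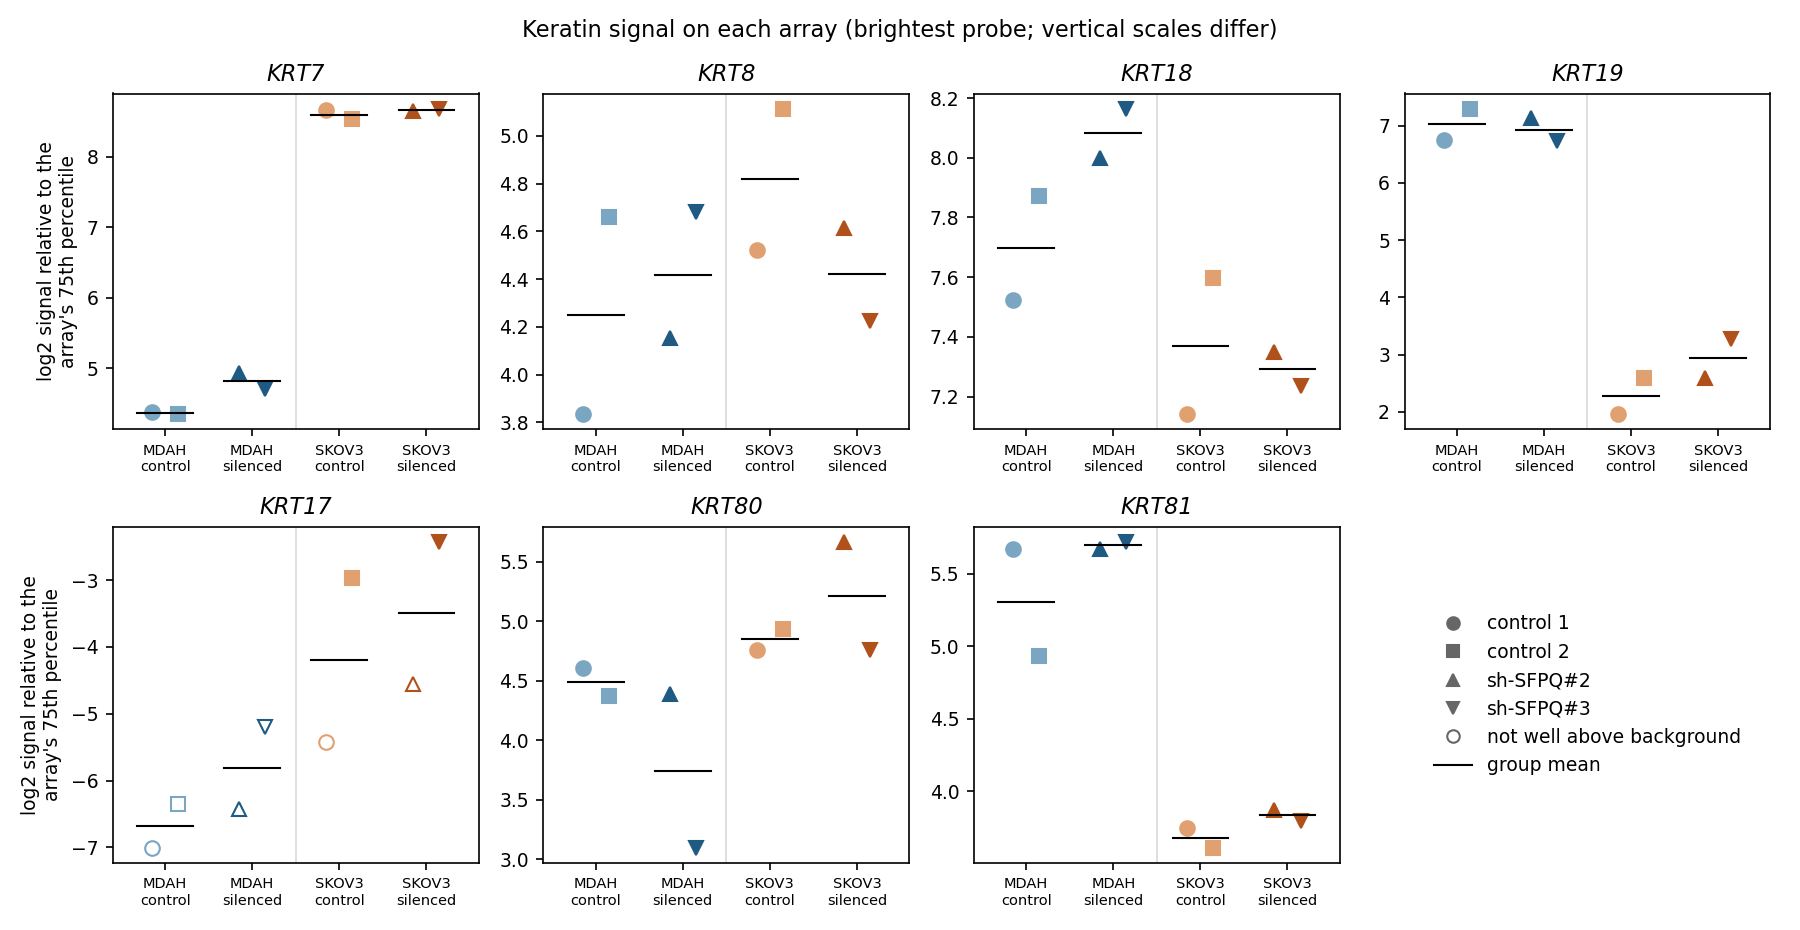
Log2 signal relative to the array's 75th percentile (vertical axis, scale differs by panel) for the brightest probe of each of the 7 keratins on each of the 8 arrays; lines mark group means and open symbols signals that were not well above background. KRT7 is higher and KRT19 lower in all 4 SKOV3 arrays than in all 4 MDAH arrays, and 6 of the 8 KRT17 symbols are open.

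**Figure D3:**
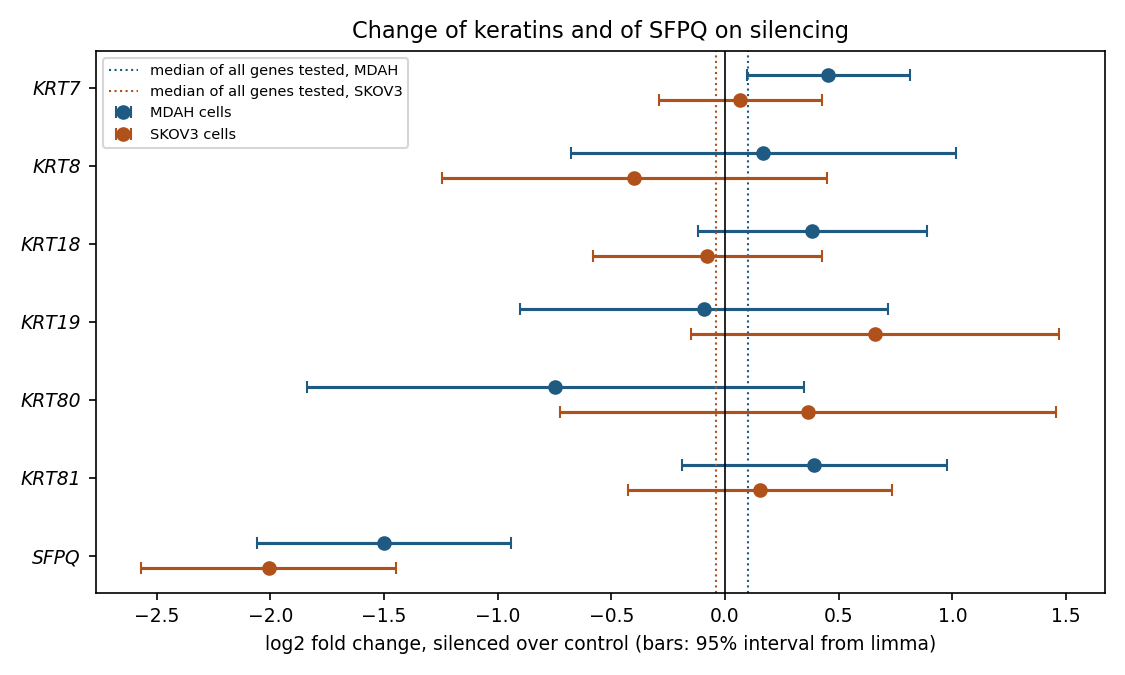
Log2 fold change of silenced over control cells (horizontal axis) in MDAH and in SKOV3 for the 6 tested keratins and SFPQ, with 95% intervals from limma; dotted lines mark the median of all genes tested in each line. The keratin estimates lie between −0.75 and 0.66, and SFPQ at −1.50 and −2.01.

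With both lines averaged no keratin was called either, while 5.66% of all genes tested were. KRT7 came nearest, with an average log2 fold change of 0.26 (SE 0.11, limma adjusted p = 0.180), and was the 1 keratin at an unadjusted p under 0.05, where 26.4% of all genes were. The other averages lay between −0.19 for KRT80 and 0.28 for KRT19. The difference between the lines' changes was called for none of the 6, against 0.0965% of all genes, and at an unadjusted p under 0.05 for none, against 14.9%. The intervals, like the p-values, measure only the spread between these arrays. In SKOV3 the interval for KRT7 reached from 0.817 of the control level to 1.34-fold. That for KRT80 in MDAH was wider and reached from 0.280 of the control level to 1.27-fold.

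The second probes of KRT8 and KRT18 gave a further view. For KRT18 the dimmer probe read 5.28 and 5.71 in the MDAH controls, 5.80 and 6.06 on the silenced MDAH arrays, 4.77 and 5.18 in the SKOV3 controls and 5.03 and 5.14 on the silenced SKOV3 arrays. Its log2 fold changes were 0.44 in MDAH (SE 0.22, adjusted p = 0.286 over all probes) and 0.11 in SKOV3 (SE 0.22, adjusted p = 0.801), so both KRT18 probes ran the same way in MDAH and had opposite signs, near 0, in SKOV3. Between the controls of the lines this probe differed by −0.52 (SE 0.22, adjusted p = 0.0866). No second probe of a keratin was called in any comparison, where of 20936 probes 2.27% were called in MDAH, 1.16% in SKOV3, 6.90% on average, 0.119% in the difference and 56.5% between the lines.

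The dimmer KRT8 probe behaved unlike the brighter one. It read −1.94 and −1.52 in the MDAH controls and −1.46 and −0.69 in the SKOV3 controls. With sh-SFPQ#3 it read −1.11 in MDAH and −1.73 in SKOV3, near the controls. With sh-SFPQ#2 it read −4.35 in MDAH and −4.70 in SKOV3, on both arrays no longer well above background. The same shRNA therefore gave the low reading in both lines, while on the brighter KRT8 probe sh-SFPQ#2 read 4.15 and 4.62, within the span of the controls. Set against the lowest signal that counted as well above background on the sh-SFPQ#2 arrays, the sh-SFPQ#3 array was at least 9.07-fold higher in MDAH and at least 4.98-fold higher in SKOV3, with 1 array on each side. The probe was singled out after its values were seen, so no test is given. Because the shRNAs were averaged in the fit, and because the sh-SFPQ#2 readings have only a bound, its fitted log2 fold changes carried wide errors and are no measured sizes, −1.0 in MDAH (SE 1.23, adjusted p = 0.658) and −2.14 in SKOV3 (SE 1.23, adjusted p = 0.376). KRT8 and KRT18 have many processed pseudogenes, and which transcripts each probe reads was not tested.

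**Figure D4:**
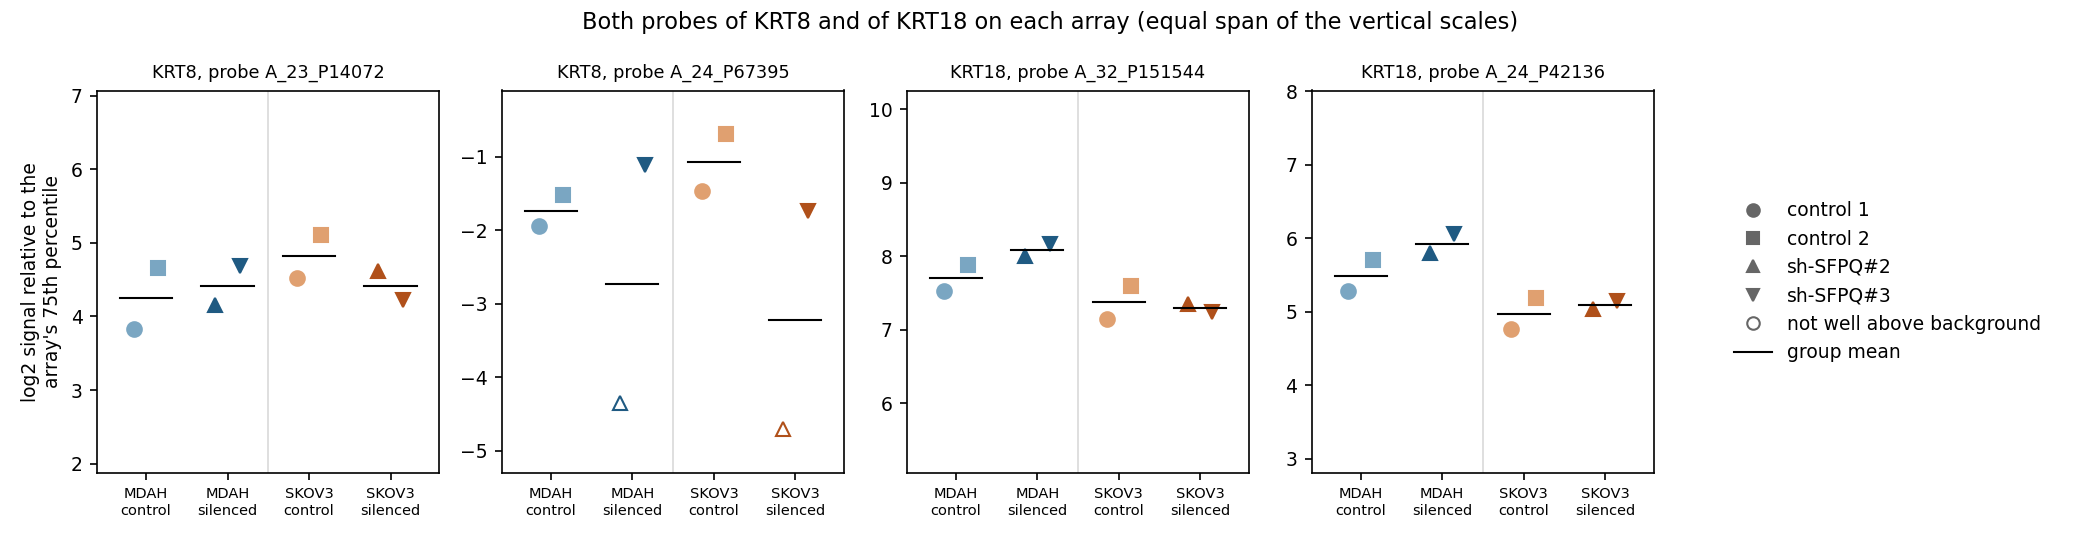
Log2 signal relative to the array's 75th percentile (vertical axis, equal span in all panels) of both KRT8 probes and both KRT18 probes on the 8 arrays; lines mark group means and open symbols signals not well above background. The second KRT8 probe is at −4.35 and −4.70 with sh-SFPQ#2 and between −1.94 and −0.69 elsewhere.

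KRT80 also split by shRNA in both lines, in the opposite direction. The sh-SFPQ#2 array exceeded the sh-SFPQ#3 array by 1.29 in MDAH and by 0.91 in SKOV3. Of the genes compared, 1.85% were at least so far apart in that direction in both lines. This share ranks KRT80 by the values that singled it out, so it is no test. No other tested member, by its brighter probe, had the same sign of this difference in both lines. The hair keratin KRT85, named here because of this pattern, read −0.05 and −0.43 with sh-SFPQ#2 in MDAH and SKOV3, and −2.35 and −2.53 with sh-SFPQ#3, where its controls lay between −3.12 and −2.25. Its silencing changes were not called (adjusted p = 0.419 in MDAH and 0.381 in SKOV3).

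The other keratins listed, which leave out KRT77 and KRT222, were mostly silent or dim in both lines. Counting the 7 members, 51 of the 53 keratins listed had a probe, 21 were well above background on no array, 13 on all arrays, and 20 were tested. None of the 20 was called on silencing in either line, where 2.03% and 0.997% of all genes were, and at an unadjusted p under 0.05 there was 1 in each, where 23.1% and 19.5% were. KRT20 and KRT23, which also belong to simple epithelium, did not pass the filter. KRT20 was well above background on no array and KRT23 on 1. Between the lines' controls 8 of 20 keratins were called, below the 57.5% of all genes. Beside KRT7, KRT19, KRT81 and KRT83 these were KRT5, KRT10 and KRT78, higher in SKOV3, and KRT32, lower. KRT32 has only a bound, and KRT5 has no measured size.

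KRT5, the basal keratin of stratified epithelium, was well above background on no MDAH control and read −0.99 and −5.21 in the SKOV3 controls, of which only the first was well above background. It was called higher there (adjusted p = 0.0317). The SKOV3 mean lay 3.42-fold above the lowest MDAH signal well above background, but it includes the dim control 2 and rests on control 1. The value is therefore no lower bound. The fitted log2 difference of 3.70 became 1.59 without SKOV3 control 1, 5.81 without SKOV3 control 2 and 1.51 with normexp. The call ended without either MDAH control (adjusted p = 0.115 and 0.114), with quantile normalization (0.0512), with the deposited values (0.0514) and with only the compared arrays (0.0647). KRT10, made by differentiating keratinocytes, had a log2 difference of 1.07 (adjusted p = 0.0205). KRT78 differed by 0.76 (adjusted p = 0.0309). Leaving out any 1 control array ended the call of KRT10 (adjusted p up to 0.0940), and that of KRT78 ended without either MDAH control or without SKOV3 control 2 (up to 0.173). KRT32, a hair keratin, was well above background in MDAH only and at least 3.24-fold lower in SKOV3 (adjusted p = 0.000542).

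Among proteins that anchor keratin filaments, silencing calls fell on 1 gene in a single line and on 2 in the average. Of 23 tested desmosomal, plakin and other anchoring genes, 0 were called in MDAH and 1 in SKOV3 (2.03% and 0.997% of all genes), JUP, which encodes plakoglobin, the desmosomal catenin. JUP read 1.29 and 1.88 in the SKOV3 controls and 3.20 and 3.33 on the silenced arrays, so it rose by 1.68 on the log2 scale (SE 0.24, adjusted p = 0.0414). In MDAH it read 4.23 and 4.48 against 4.38 and 4.68, a change of 0.18 (SE 0.24, adjusted p = 0.681). The difference between the lines was −1.50 (adjusted p = 0.186) and was not called. The call in SKOV3 ended without either MDAH control (adjusted p = 0.119), without SKOV3 control 1 (0.130), with only the compared arrays (0.165), without the filter (0.0792) and without the sh-SFPQ#3 array of SKOV3 (0.138). Averaged over the lines, JUP at 0.93 (adjusted p = 0.0322) and the desmosomal cadherin DSC2 at 0.69 (adjusted p = 0.0332) were called, where 5.66% of all genes were. The JUP call ended in 6 of 18 alternatives (adjusted p up to 0.142) and the DSC2 call in 9 of 17 (0.39 with normexp; adjusted p up to 0.138). The median over the list was 0.12 in MDAH and 0.08 in SKOV3. At an unadjusted p under 0.05 there were 5 of 23 in MDAH and 7 in SKOV3, where 23.1% and 19.5% of all genes were.

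Between the lines' controls the anchors differed in both directions, 11 higher and 8 lower in SKOV3 of 23, where 30.7% and 26.8% of all genes were. COL17A1, a hemidesmosome collagen, was higher by 4.84 (2.97 with normexp), although only 1 of the 2 MDAH controls was well above background. Also higher were the desmosomal cadherin DSC3 at least 5.18-fold and the integrin ITGA6 by 1.92. EPPK1, which encodes epiplakin, was at least 5.11-fold lower, JUP lower by a log2 difference of −2.77 and the plakophilin PKP3 by −1.62. The highest of these adjusted p-values was 0.000665.

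Among 12 tested intermediate filament genes that are not keratins, 1 was called in MDAH and 0 in SKOV3. The shares of all genes were 2.03% and 0.997%. BFSP1, which encodes the beaded filament protein filensin of the lens, read 1.93 and 1.71 in the controls and 0.25 and −0.17 on the silenced arrays, and fell by 1.77 on the log2 scale (SE 0.21, adjusted p = 0.0165). In SKOV3 its change was −0.45 (adjusted p = 0.305), and the difference between the lines was not called (−1.32, adjusted p = 0.189). The average over both lines was −1.11 (adjusted p = 0.0175), a call that ended without MDAH control 1 (0.107), MDAH control 2 (0.0757) or SKOV3 control 2 (0.0536). The call in MDAH ended without MDAH control 1 (adjusted p = 0.188) or MDAH control 2 (0.0985) and with only the compared arrays (0.0502). Between the lines' controls 5 of the 12 were called higher and 4 lower in SKOV3, where 30.7% and 26.8% of all genes were. NEFL, the light neurofilament, was well above background in MDAH only and at least 89.8-fold lower in SKOV3. The stem-cell filament NES was lower by a log2 difference of −2.36, and BFSP1 by −2.30. SYNM, SYNC and the lamin LMNB2 were higher in SKOV3 by 4.77, 2.37 and 1.73.

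Factors known for control of epithelial genes were tested at 24 genes. SNAI1, which represses CDH1, was called in MDAH, where it read 1.47 and 1.63 in the controls and 2.49 and 2.31 on the silenced arrays, a log2 fold change of 0.85 (SE 0.15, adjusted p = 0.0488). In SKOV3 it was −0.30 (adjusted p = 0.333), and the difference between the lines, 1.15, was not called (adjusted p = 0.151). This call was at the threshold and ended in 14 of 19 alternatives, among them the omission of any 1 of the 8 arrays (adjusted p up to 0.335). On average over both lines ZEB2 was called higher and FOXA2 lower, with sizes that were not measured on both sides. ZEB2 was well above background on neither SKOV3 control and on 1 of 2 MDAH controls, and FOXA2 on no MDAH array, and the calls ended in 10 and 12 of 17 alternatives. The ZEB2 probe used was named through a noncoding transcript. With the mean of all ZEB2 probes the fitted average fell from 1.65 to 0.54 (limma adjusted p = 0.317). Between the controls 8 factors were higher and 5 lower in SKOV3, near the 30.7% and 26.8% of all genes, with SNAI2 at least 45.3-fold, FOXA2 at least 19.8-fold and EHF at least 13.1-fold higher. TFAP2C was at least 10.5-fold lower, and ELF3 and SNAI1 were lower by log2 differences of −3.08 and −2.36.

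Epithelial markers that are not keratins were lower in SKOV3 than in MDAH at 11 of 15 tested genes and higher at 3, where 26.8% and 30.7% of all genes were, with a median log2 difference of −1.81 against 0.05 over all genes. EPCAM had a log2 difference of −3.64, and SPINT1, a protease inhibitor, and CDH1 were at least 23.0-fold and 9.60-fold lower. The mucin MUC1 was higher in SKOV3 by 1.40 and CDS1 by 0.75. The call of MUC1 ended without MDAH control 1 or without SKOV3 control 2. That of CDS1 ended in 8 of 19 alternatives, among them the omission of any 1 control array. The others were quantile normalization (limma adjusted p = 0.0810), the deposited values (0.0814), no filter (0.0637) and the replicate block (0.0798). KRT19 thus ran the same way as most of these markers, and KRT7 the opposite way. On silencing none of the 15 was called in either line, where 2.03% (MDAH) and 0.997% (SKOV3) of all genes were. The median change was −0.15 in MDAH and 0.41 in SKOV3, and the summed signal of the list, in multiples of the array's 75th percentile, was 198 to 213 on the silenced MDAH arrays against 236 to 261 in the controls, and 132 to 141 against 113 to 129.5 in SKOV3. A single gene, the protease inhibitor SPINT2, made up 74.3% to 83.4% of this sum on each array, and the sum without it was 47.3 to 52.9 against 60.8 to 64.8 in MDAH and 25.1 to 30.5 against 20.1 to 21.5 in SKOV3. The part of these shifts in the keratin values was not tested. Averaged over the lines SPINT1 was called higher (adjusted p = 0.0457), a call that ended in 10 of 17 alternatives. On neither SKOV3 control was it well above background, and there it was at least 3.04-fold higher on silencing (adjusted p = 0.0650), against a log2 fold change of 0.39 in MDAH (adjusted p = 0.525).

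No ovarian tumour, mesenchymal or leukocyte and endothelial marker was called in either line, where 2.03% (MDAH) and 0.997% (SKOV3) of all genes were. On average over both lines MUC16, the CA-125 antigen, and the collagen gene COL1A1 were called higher. MUC16 was well above background on the silenced SKOV3 arrays only, where it was at least 2.59-fold higher than in the controls (adjusted p = 0.0644), and its averaged call ended in 10 of 17 alternatives. The average of COL1A1 was 1.18 (adjusted p = 0.0296), and this call ended in 7 of 18 alternatives (adjusted p up to 0.138). The summed signal of the 12 mesenchymal markers was 180 to 187 in the MDAH controls and 224 to 250 on the silenced arrays, and 357 to 371 and 275 to 294 in SKOV3, and VIM alone made up at least 90.2% of it. Without VIM the sum was 12.2 to 15 in the MDAH controls and 12.5 to 16.6 on the silenced arrays, and 32.7 to 36.5 and 16.1 to 25.7 in SKOV3. That of the 9 leukocyte and endothelial markers was 2.94 to 3.87 in the MDAH controls and 5.86 to 6.25 on the silenced arrays, and 2.31 to 3.35 and 2.41 to 3.31 in SKOV3. CD68, a lysosomal protein of macrophages that other cells make as well, made up 61.6% to 83.4% of it. Without CD68 the sum was 0.963 to 1.03 in the MDAH controls and 0.970 to 1.12 on the silenced arrays. In SKOV3 it was 0.844 to 0.885 in the controls and 0.699 to 0.733 on the silenced arrays. The part of other cell types in the keratin values was not tested.

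**Figure D5:**
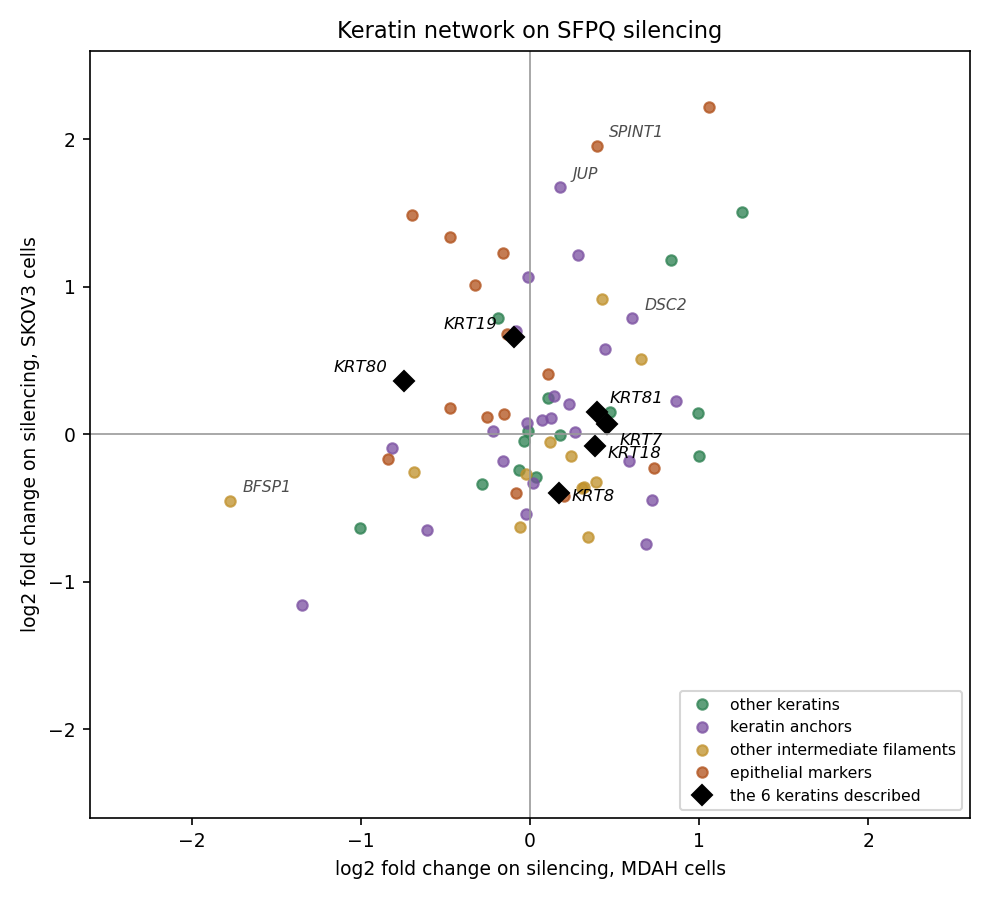
Log2 fold change on silencing in MDAH (horizontal axis) and SKOV3 (vertical axis) for the tested genes of the keratin network, coloured by list; diamonds are the 6 tested keratins described, and 4 genes called in a line or in the average are named. The diamonds lie between −0.75 and 0.45 in MDAH and between −0.40 and 0.66 in SKOV3, inside the cloud of the other genes.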

How the data were processed

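RNA of 8 cell samples was measured on 8 single-colour Agilent arrays of 1 slide, scanned once; the lines lay in different rows of the slide, so that position and line cannot be told apart. Per the file headers, the authors' Feature Extraction software gave a background-subtracted intensity per spot on a linear scale; the headers name version 11.5.1.1 and the submitters' processing notes 10.7.3.1. The authors also deposited log2 values, which matched quantile-normalized signals minus each probe's median (checked, r over 0.999); this table was an alternative.

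Control spots and outlier spots (209 to 310 per array) were dropped, spots of a probe averaged as log2, and the array's 75th percentile subtracted (244 to 496 in intensity; 47.7% to 57.0% of probes well above background, 0 saturated spots). Through RefSeq accessions 28174 of 30878 probes were named with a reference table; the brightest probe of a gene was used. Genes entered where both arrays of a group were well above background. All 4 groups were fitted with limma 3.58.1 in R 4.3.3, adjusted by Benjamini-Hochberg over 15552 genes, threshold 0.05; the prior added 2.69 to 4 residual degrees of freedom. The number of arrays limits the precision. "At least N-fold" sets the brighter group's mean against, per array of the dim group, the higher of its own signal and the lowest signal well above background. The code was tested on simulated data.

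The members and lists were chosen with earlier results of these data known. Named are the members, SFPQ, the called genes of each list (at most the 3 highest and 3 lowest), defining markers, and per member the 2 genes most like it over the arrays. Alternatives varied the scaling, background correction, filter, probe choice, outlier spots, arrays fitted, replicate block, variance prior and each array left out. A gene that this rule names is not reported here.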

Additional observations from a re-analysis of the deposited data

How the results depend on the processing

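The number of keratins called stayed at 0 on silencing in each line, on average and in the difference, and at 3 between the controls of the lines, in every alternative run, including each array left out; the average and difference could not be fitted with only the compared arrays. Among the 6 keratins, only changes that were not called changed sign. With quantile normalization and with the deposited values the KRT18 change in SKOV3 was 0.14 in each, the KRT18 difference −0.045 and −0.047, and the KRT81 difference −0.027 and −0.028. With median centring the KRT19 change in MDAH was 0.019. With the mean of all probes the KRT8 change in MDAH was −0.41 and the KRT18 change in SKOV3 0.018. Leaving out single arrays gave changes from −0.24 to 0.58 for KRT8 and from −0.37 to 0.18 for KRT19 in MDAH, and in SKOV3 from −0.00058 to 0.14 for KRT7, from −0.31 to 0.15 for KRT18 and from −0.088 to 0.82 for KRT80. The averages ran from −0.32 to 0.092 for KRT8 and from −0.51 to 0.13 for KRT80, and the KRT81 difference from −0.13 to 0.61.

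The SFPQ call was lost in MDAH with median centring (−1.39, adjusted p = 0.0610), and in both lines without the filter (−1.50, 0.0510 and −2.01, 0.0599) and with only the compared arrays (−1.50, 0.0628 and −2.01, 0.157). With single arrays left out the change ran from −1.68 to −1.33 in MDAH and from −2.27 to −1.74 in SKOV3, with adjusted p up to 0.218 and 0.118. The causes were not tested. Counts over all genes moved far more. Against 316 in MDAH and 155 in SKOV3, they ran from 9 to 1091 and from 13 to 595 with an array left out, and were 143 and 0 with only the compared arrays (3034 genes were at an unadjusted p under 0.05 in SKOV3 with all arrays), 498 and 460 with normexp, 451 and 273 with an intensity trend in the prior, 114 and 114 for genes well above background on all arrays, and 235 and 39 without the filter. Median centring moved the median change of all genes in MDAH from 0.10 to 0.21 and the higher calls there from 65 of 316 to 100 of 268.

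Control and silenced arrays share only the number 2, which marks an shRNA in one group and a repeat in the other, so the numbers do not pair them. Deviations from group means correlated over genes at 0.078 for the controls and 0.363 for the shRNAs of both lines. With the replicate block the counts were 862 in MDAH, 688 in SKOV3 and 1770 on average (880 without it), and no count of keratins changed, with 0 on silencing and 3 between the lines. Signal over background limits KRT17 and the second KRT8 probe.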

Other observations

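The genes whose level across the 8 arrays was most like that of each keratin, among 12382 genes well above background on all arrays, are given with Pearson's r as a description. For genes that differ between the lines this r mostly restates that difference. KRT7 was nearest to ZNF264 (r = 0.999) and RELCH (0.999), KRT19 to FBXO16 (0.996) and SLITRK4 (0.996), and KRT81 to RTBDN (0.995) and LINC00887 (0.994). KRT18 was nearest to SCAMP3 (0.986) and WASHC5 (0.983), KRT8 to ATP5MC1 (0.955) and WDR83OS (0.955), and KRT80 to H2AJ (0.950) and UBE2D4 (0.946). No keratin was among these nearest genes of another. KRT7 and KRT19 had r = −0.98 with each other over the same arrays. KRT8 and KRT18, which pair in filaments, had r = 0.12. That r spans both lines, between which KRT8 and KRT18 differed in opposite directions (0.57 and −0.33, neither called). Within each group the array with the higher KRT8 level also had the higher KRT18 level, by their brighter probes. With 2 arrays per group this is a description only, and its share among other gene pairs was not computed. By the dimmer KRT18 probe the silenced SKOV3 arrays had the opposite order, 5.03 with sh-SFPQ#2 and 5.14 with sh-SFPQ#3.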
